A study of Mus musculus with 2 samples.

Results

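Leukemia cells with at least 1 UMI of *Cd34* (unique molecular identifier, the tag by which a captured transcript is counted once) are described here in a mouse acute myeloid leukemia driven by *MLL-AF9* and profiled by single-cell RNA-seq. They were selected on a single measured value, the *Cd34* UMI count of the cell, among cells with 500 or more detected genes. Of 7411 such kept cells, 646 carried *Cd34* (8.72%) and 6765 did not. The members comprised 241 of 3866 kept cells in the WT-labelled library and 405 of 3545 in the KO-labelled library.

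Each genotype gave 1 library, from a pool of 5 leukemias for WT and 4 for KO. Donors of both groups carried *Kat2a* Flox/Flox alleles and received pIpC. WT donors were Mx1-Cre-/- and KO donors Mx1-Cre+/-, so the recombinase that pIpC induces was present in the latter alone. Marrow taken 4 to 6 weeks later was depleted of lineage-positive cells, transduced with an MSCV-*MLL-AF9*-IRES-YFP retrovirus and transplanted into lethally irradiated mice. Terminal bone marrow was thawed, pooled, and sorted for live YFP+ cells, with capture aimed at 6000 cells per library. The individual leukemias of a pool carry no label, and there is no replicate of either genotype, so no test between genotypes was possible. All intervals in brackets are exact 95% intervals that cover counting error only; they treat UMIs or cells as independent and hold neither the spread between leukemias nor that between cells.

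CD34 is a sialomucin of the cell surface that hematopoietic stem cells and early progenitors share with endothelium. In mouse myelopoiesis it marks granulocyte-monocyte progenitors and is lost as cells mature. Leukemic granulocyte-monocyte progenitors, which carry Kit, Fc gamma receptors and CD34 on their surface, are the classical self-renewing compartment of *MLL-AF9* leukemia in the mouse. *Cd34* (ENSMUSG00000016494) lies on chromosome 1 from 194938819 to 194961279 on the plus strand of GRCm38, as annotated in GENCODE M21, with up to 8 exons in its 5 transcripts.

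The deposited matrix held 8309 cells, and kept cells had medians of 2588.5 UMIs in the WT-labelled library and 1884 in the KO-labelled library. The 2 libraries shared 28 barcode sequences, 19 of them among kept cells and 0 among *Cd34*-detected cells. *Kat2a*, the targeted gene, went against the labels: within *Cd34*-detected cells it had 20 UMIs (22.1 CPM, counts per 1000000 UMIs) in the WT-labelled library and 130 (118 CPM) in the KO-labelled library. The 3′ assay reads the last exon, which the excised transcript keeps, so this gene does not check the genotype. Directions between the libraries therefore rest on the assignment of barcodes, which was taken from the study's published code.

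*Cd34* was rare and low in both libraries. Kept cells held 372 *Cd34* UMIs in the WT-labelled library (31.9 CPM, 28.7 to 35.3) and 602 in the KO-labelled library (76.0 CPM, 70.1 to 82.3). One UMI, the lowest count inside the limit, was found in 154 members of the WT-labelled library and in 275 of the KO-labelled library, while 87 and 130 members had 2 or more and the highest count was 7 in each library. The nearest cells outside the limit were the 3625 and 3140 cells at 0. Most members thus sat 1 molecule away from the limit, and cells called undetected may include cells whose *Cd34* transcripts were not captured.

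At their own depth 6.23% of kept cells carried *Cd34* in the WT-labelled library (5.49 to 7.04) and 11.4% in the KO-labelled library (10.4 to 12.5). Detection depended on depth: the share was 3.30% in cells from 1000 to below 2000 UMIs and 11.0% in cells of 5000 or more in the WT-labelled library, and 9.22% against 30.8% in the KO-labelled library, where the 194 cells under 1000 UMIs gave 15.98%. With every cell thinned to 1000 UMIs, which left out 66 and 194 shallower cells, the shares were 2.24% (1.79 to 2.76) and 6.36% (5.55 to 7.24). The share was therefore 2.84-fold higher (2.20 to 3.70) in the KO-labelled library at 1000 UMIs, against 1.95-fold (1.53 to 2.48) at 2000 UMIs, 1.83-fold (1.56 to 2.16) at own depth and 1.63-fold (1.23 to 2.16) with 2 or more UMIs required. These ratios describe 2 libraries and have no replicate check.

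A cell type that should lack the transcript gave the background. In a cluster with granulocyte markers (granulocyte-like, led by *Ly6g*, *Plbd1* and *Ltf*), 2 of 571 cells carried *Cd34* in the WT-labelled library (0.350%, 0.0424 to 1.26, median 1802 UMIs) and 4 of 221 in the KO-labelled library (1.81%, 0.495 to 4.57, median 1488 UMIs). Cells under 500 genes, which were not kept and whose type is unknown, carried it in 1 of 203 cases (0.493%, 0.0125 to 2.71, median 1063 UMIs) and in 17 of 695 (2.45%, 1.43 to 3.89, median 907 UMIs). At 1000 UMIs the granulocyte-like cluster gave 0.175% (0.00444 to 0.974) and 1.36% (0.281 to 3.92), below the 2.24% and 6.36% of all kept cells at that depth. The 2.24% of the WT-labelled library lay inside the interval of its cells under 500 genes.

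**Figure D1:**
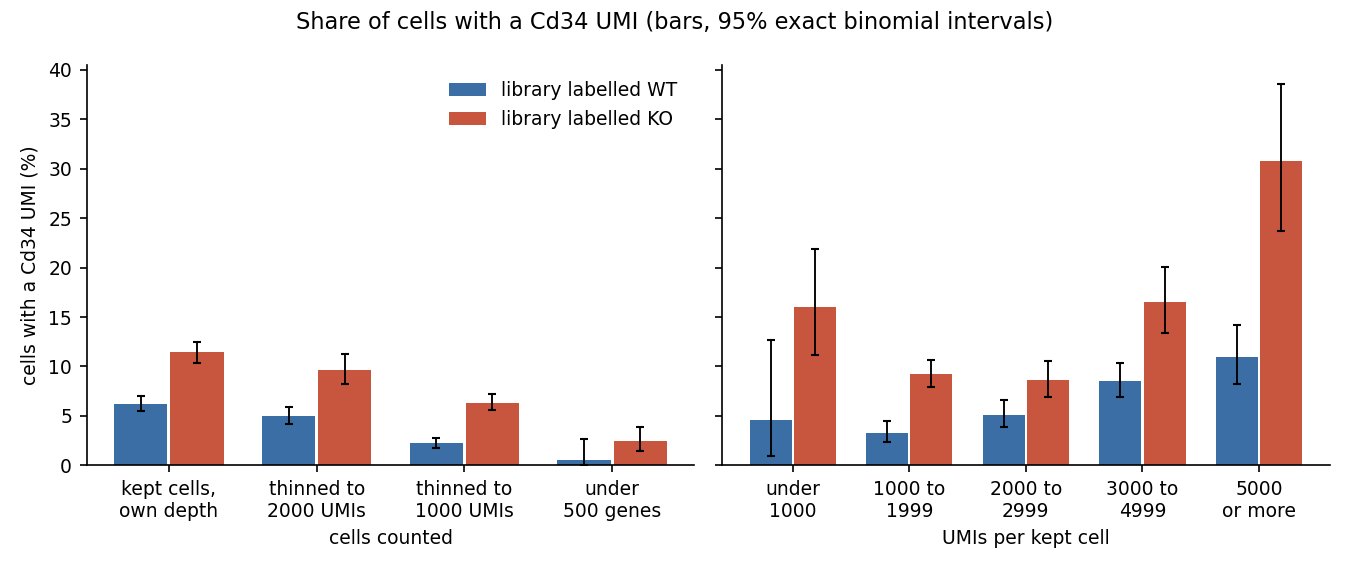
Share of cells with a *Cd34* UMI (%, bars with exact 95% binomial intervals) in the WT-labelled library (blue) and the KO-labelled library (red). Left, kept cells at own depth, after thinning to 2000 and to 1000 UMIs, and cells under 500 genes; right, kept cells by total UMIs. The share is higher in the KO-labelled library in every bin and reaches 30.8% in its cells of 5000 or more UMIs.

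Members were not spread evenly over the leukemia. Cells of both libraries were grouped by k-means into 12 clusters from 784 variable genes, with *Cd34* itself left out. At 1000 UMIs, 20.5% of cells of cluster 8 carried *Cd34* in the KO-labelled library (16.6 to 24.8) and 12.0% in the WT-labelled library (7.79 to 17.5). Cluster 3 had 18.04% (14.0 to 22.7) and 6.04% (3.83 to 9.01), cluster 12 had 17.8% (13.3 to 23.2) and 10.8% (3.03 to 25.4), and cluster 10 had 8.96% (4.71 to 15.1) and 6.70% (4.34 to 9.81). These 4 clusters were not named, since their leading genes did not meet the marker rule; cluster 3 was led by *Mcpt8*, *Fabp5* and *Oaf*, cluster 8 by *Sox4*, *Spns3* and *Cd1d1*, cluster 10 by *S100a10*, *Fcgrt* and *Ass1*, and cluster 12 by *Cd7*, *H2-Aa* and *Cd74*.

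The remaining 8 clusters held few members. A granulocyte-monocyte progenitor-like cluster, led by *Mpo*, *Mgl2* and *Elane*, gave 2.14% (0.697 to 4.92) in the KO-labelled library and 0.754% (0.156 to 2.19) in the WT-labelled library at 1000 UMIs. Its name rests on primary granule genes among its leading genes, and *Cd34*, which marks this cell type, goes against it. *Cd34* was at 25.4 CPM there against 76.0 CPM over kept cells of the KO-labelled library, and at 8.98 against 31.9 CPM in the WT-labelled library. The monocyte or macrophage-like cluster, led by *Clec4a1*, *Sirpb1c* and *Sirpb1b*, gave 3.55% (1.16 to 8.08) and 1.41% (0.520 to 3.05). Cluster 11, led by stefin A genes, had 0 of 312 and 0 of 133 cells with *Cd34* at own depth, which allows shares of cells with a UMI of up to 0.962% and 2.26% at a limit of 3 counts (exact upper bounds 1.18% and 2.74%). Counting all members, cluster 3 held 38.2% of those in the WT-labelled library and 34.3% in the KO-labelled library. Cluster 8 held 19.5% and 29.9%, cluster 10 held 26.6% and 6.42%, and cluster 12 held 2.90% and 18.02%. Cluster 3 was also the deepest of these clusters, with medians of 4945.5 and 3876.5 UMIs against 2298.5 and 1436.5 in cluster 8. At 1000 UMIs, 22 and 57 cells of cluster 3 carried *Cd34*, against 23 and 79 of cluster 8 and 24 and 12 of cluster 10. *Cd34* was at 81.3 and 175 CPM in cluster 3 and at 151 and 242 CPM in cluster 8. The clusters also differed in size between the libraries. Of all kept cells, cluster 3 held 9.42% and 8.91%, and cluster 8 held 5.07% and 12.2%. Cluster 10 held 9.29% and 3.81% of kept cells, and cluster 12 held 1.22% and 9.56%.

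**Figure D2:**
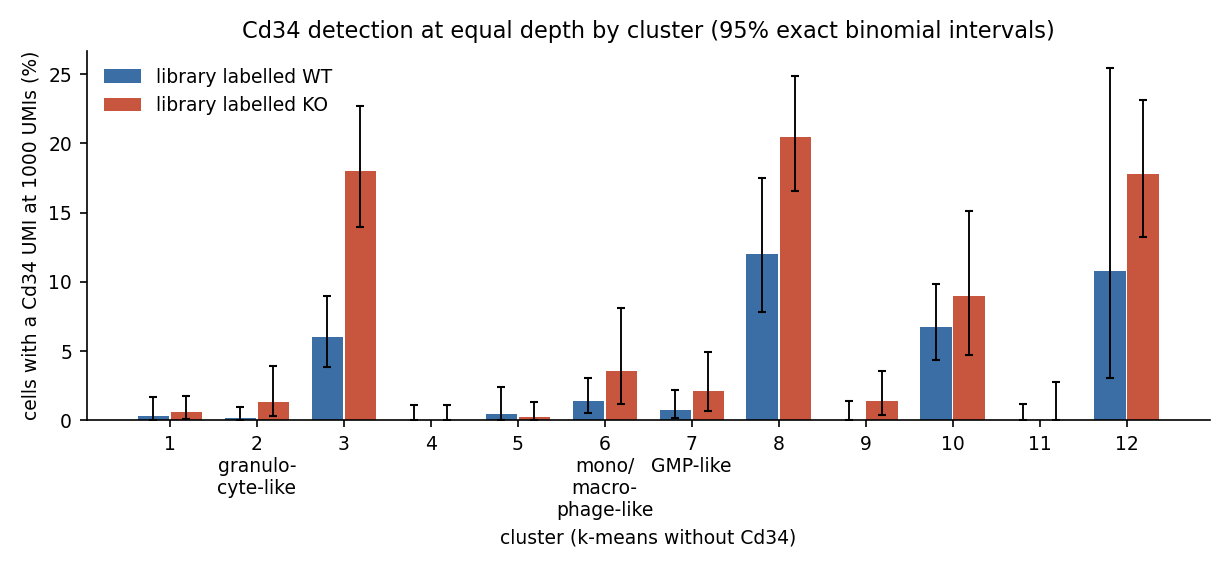
Share of cells with a *Cd34* UMI (%, bars with exact 95% binomial intervals) in each of 12 clusters, every cell thinned to 1000 UMIs, in the WT-labelled library (blue) and the KO-labelled library (red). Detection is concentrated in clusters 3, 8, 10 and 12, and is higher in cluster 3 of the KO-labelled library (18.04%) than in that of the WT-labelled library (6.04%).

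Members were next compared with cells without *Cd34* at equal depth, to ask what else distinguishes them. Each was matched to the 2 undetected cells of its library nearest in total UMIs, which gave 482 and 810 matched cells with medians of 3439.5 and 2082 UMIs against 3440 and 2082 in members. At this equal depth members had more detected genes, a median of 1373 against 1288.5 in the WT-labelled library and 959 against 867.5 in the KO-labelled library. Of 3249 genes with 100 or more UMIs over both groups in each library, 10.7% were 1.5-fold or more higher and 6.03% lower in members of the WT-labelled library, and 8.99% higher and 6.62% lower in those of the KO-labelled library. In both libraries at once, 140 genes were higher (4.31%) and 121 lower (3.72%), whereas 3 passed the fold in opposite directions. The median log2 ratio over all tested genes was 0.14 in the WT-labelled library and 0.13 in the KO-labelled library. Scaling by the median of gene ratios removes this shift and gave 93 genes higher and 168 lower.

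**Figure D3:**
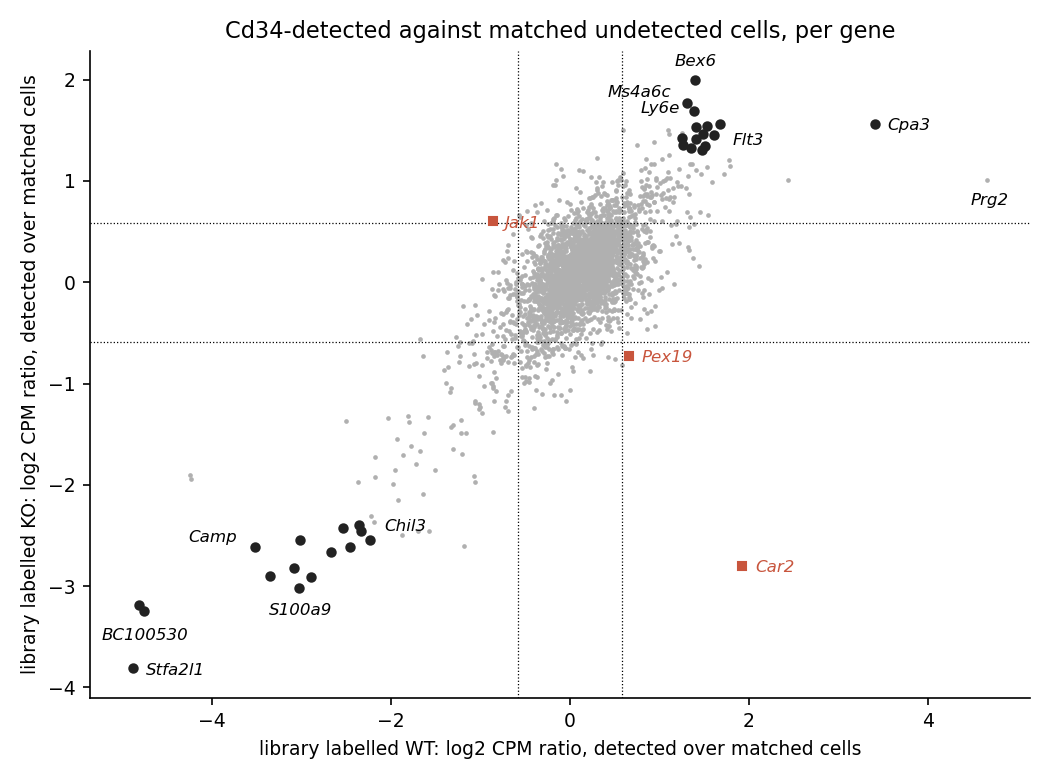
Log2 ratio of CPM per gene, *Cd34*-detected over matched undetected cells, in the WT-labelled library (horizontal axis) and the KO-labelled library (vertical axis), for genes with 100 or more UMIs in each. Dotted lines mark 1.5-fold; black points are the 15 genes furthest past it in each direction in both libraries; red squares are *Car2*, *Pex19* and *Jak1*, which passed it in opposite directions.

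Transcripts of mature granulocytes were the main deficit of *Cd34*-detected cells. The list of secondary and tertiary granule and mature granulocyte genes made up 14544 CPM in members and 97889 CPM in matched cells of the WT-labelled library, and 15096 and 92117 CPM in the KO-labelled library. The log2 ratios were -2.75 (-2.78 to -2.73) and -2.61 (-2.63 to -2.59), and 12 of 12 tested members of the list were 1.5-fold or more lower in both libraries. *S100a8*, a subunit of the calcium-binding calprotectin, had 2165 CPM in members against 16036 CPM in matched cells of the WT-labelled library and 2346 against 17603 in the KO-labelled library, log2 ratios of -2.89 and -2.91. *Camp*, the cathelicidin precursor of secondary granules, had 1268 against 14593 and 2281 against 13926 CPM. *Lcn2*, which binds iron-carrying siderophores, had 517 against 2613 and 319 against 1747 CPM.

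The deficit was seen in most members. In the median member, these genes supplied 0.337% of UMIs in the WT-labelled library and 0.346% in the KO-labelled library, against 7.41% and 6.26% in matched cells. Matched cells were widely spread, with an interquartile range of 2.17 to 19.96% in the WT-labelled library and 0.556 to 18.6% in the KO-labelled library. A minority of members carried mature granule transcripts at such levels: 14 of 241 and 22 of 405 had 5% or more of their UMIs in these genes, compared with 59.1% and 52.7% of matched cells.

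**Figure D4:**
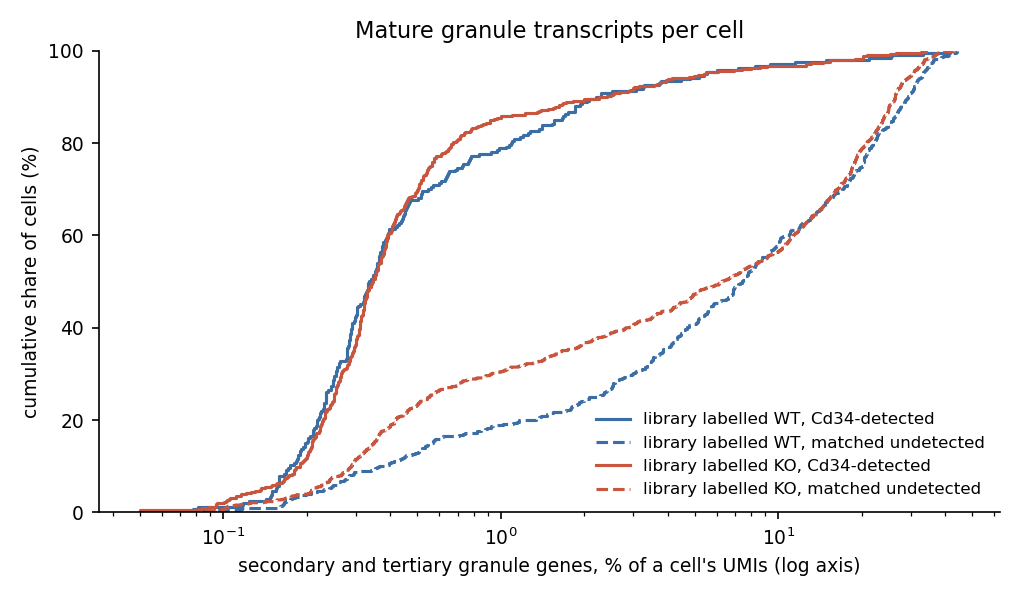
Cumulative share of cells (%) by the percent of a cell's UMIs in secondary and tertiary granule genes (log axis), for *Cd34*-detected cells (solid) and matched undetected cells (dashed) of the WT-labelled library (blue) and the KO-labelled library (red). The medians are 0.337% and 0.346% in members and 7.41% and 6.26% in matched cells; 3 cells with no such UMI are drawn at 0.05%.

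Among the other genes furthest below matched cells were stefins and secreted proteins. Stefin A family genes, which encode cysteine protease inhibitors, were lower for all 4 tested, among them *Stfa1* (123 against 1254 CPM and 92.2 against 690.0 CPM) and *BC100530* (99.4 against 2706 and 144 against 1362 CPM). Reads of these near-identical genes may be shared between copies, so their separate values are uncertain. *Fcnb*, a secreted ficolin, was found in 15.4% of members and 57.7% of matched cells of the WT-labelled library and in 14.6% and 58.8% in the KO-labelled library. *Ngp*, a neutrophil granule protein, was at 2974 against 23988 CPM and 5160.4 against 30080.3 CPM. The 5 richest members held 59.5% and 32.9% of its UMIs in members, and the 5 richest in *Camp* held 68.1% and 44.2% of that gene.

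Primary granule genes, which are switched on earlier, went both ways. *Mpo* (myeloperoxidase) was at 1954 CPM in members and 1486 CPM in matched cells of the WT-labelled library and at 1911 and 1381 CPM in the KO-labelled library, log2 ratios of 0.39 (0.31 to 0.48) and 0.47 (0.39 to 0.55). *Elane* (neutrophil elastase) was at 5202 against 10516 CPM and 3586 against 8533 CPM, log2 ratios of -1.02 (-1.06 to -0.97) and -1.25 (-1.30 to -1.20). Of 9 tested genes of the list, *Elane*, *Ms4a3* and *Serpinb1a* were past 1.5-fold lower in both libraries and *Cst7* higher, with *Ctsg* (cathepsin G) at log2 ratios of 0.23 and 0.49. The summed list was lower, -0.47 and -0.45, although its median gene was at -0.16 in the WT-labelled library and 0.01 in the KO-labelled library. Among 9 tested myeloid transcription factors, *Cebpe* and *Gfi1*, which act in granulocyte differentiation, and *Id2* were past the fold lower, and *Irf8* was past it higher.

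Of the monocyte, macrophage and dendritic genes, 5 of 9 tested were 1.5-fold or more higher in members of both libraries, and the summed list stood at log2 ratios of 0.81 (0.74 to 0.87) and 0.45 (0.40 to 0.51). The direction depended on the comparison, since the list stood at -0.084 (-0.14 to -0.023) and -0.32 (-0.38 to -0.27) against undetected cells of the same cluster. *Irf8*, a transcription factor of monocyte and dendritic progenitors, was at 399 CPM in members and 116 CPM in matched cells of the WT-labelled library and at 219 and 94.9 CPM in the KO-labelled library, log2 ratios of 1.78 (1.53 to 2.03) and 1.20 (0.93 to 1.48). It was found in 59.3% of members and 18.7% of matched cells in the former and in 33.8% and 11.9% in the latter. *Ms4a6c* had 369 against 149 CPM and 667 against 196 CPM, and *Ly86*, the MD-1 partner of an innate immune receptor, 275 against 103 and 289 against 99.9 CPM. The 5 genes past the fold were *F13a1*, *Ccr2*, *Ms4a6c*, *Cd68* and *Ctss*, with 0 past it lower, and the median log2 ratios of the tested genes were 0.86 and 0.82. Of the 20 genes of the list, 5 had 0 UMIs in members: the macrophage markers *C1qa*, *C1qb*, *Mrc1* and *Fcgr1* and the plasmacytoid gene *Siglech*. Other macrophage markers of the list, *C1qc*, *Adgre1*, *Apoe* and *Cx3cr1*, were not at 0. MHC class II transcripts were low, and the summed CPM of *Cd74*, the invariant chain, divided the libraries. *Cd74* was at 17.7 against 1.10 CPM in the WT-labelled library, where members held 16 UMIs, and at 136 against 515 CPM in the KO-labelled library. By share of cells, *H2-Ab1* was found in 6.64% of members against 3.11% of matched cells and in 9.14% against 7.90%. In matched cells of the KO-labelled library, 5 cells held 56.0% of the *H2-Ab1* UMIs. The class II peptide-loading genes *H2-DMa* and *H2-DMb1* passed 1.5-fold higher in both.

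Surface receptors of progenitors gave a smaller difference. *Flt3*, a receptor tyrosine kinase of multipotent and lymphoid-primed progenitors, was at 76.2 against 23.8 CPM in the WT-labelled library and 90.4 against 30.6 CPM in the KO-labelled library, log2 ratios of 1.68 (1.11 to 2.27) and 1.56 (1.10 to 2.03). A UMI of it was found in 21.2% of members against 6.64% of matched cells and in 16.5% against 5.56%. *Cd48*, a SLAM family receptor, was at 287 against 108 and 243 against 91.3 CPM, and *Il3ra*, the interleukin 3 receptor alpha chain, was 1.5-fold or more higher with log2 ratios of 0.86 and 0.85. These were 3 of the 9 tested genes of the list, of which 0 were past the fold lower. The summed list stood at log2 ratios of 0.42 (0.33 to 0.50) and 0.30 (0.22 to 0.37).

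The surface phenotype of the leukemic progenitor was not traced well by its transcripts. *Kit*, the stem cell factor receptor, had a UMI in 4 of 241 members (1.66%, 0.454 to 4.19) and 9 of 482 matched cells (1.87%, 0.857 to 3.51) of the WT-labelled library, and in 3 of 405 (0.741%, 0.153 to 2.15) and 10 of 810 (1.23%, 0.594 to 2.26) in the KO-labelled library. A difference in *Kit* was not detectable at this depth. *Fcgr3*, an Fc gamma receptor, had one in 58.9% of members and 51.04% of matched cells and in 44.7% and 31.1%. *Ly6a*, which encodes Sca-1 and is absent from granulocyte-monocyte progenitors, had one in 1 member of each library. Both *Kit* and *Fcgr3* were seen together in 4 and 2 members.

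The list of MLL and stem cell regulators stood at log2 ratios of 0.49 (0.42 to 0.57) and 0.43 (0.36 to 0.50) in sum, while its members differed. *Hoxa9*, the homeobox gene that MLL fusions activate, was at 151 CPM in members and 218 CPM in matched cells of the WT-labelled library, a log2 ratio of -0.52 (-0.82 to -0.24), and at 121 and 130.1 CPM in the KO-labelled library, a ratio of -0.10 (-0.41 to 0.20). *Meis1*, its partner, had log2 ratios of -0.13 (-0.75 to 0.45) and 0.49 (-0.05 to 1.01), and both transcripts were found together in 13 of 241 and 11 of 405 members, or 5.39% and 2.72%, against 6.85% and 1.85% of matched cells. The neighbouring *Hoxa7* was higher, at 102 against 56.9 and 97.7 against 60.2 CPM. *Hoxa7*, *Tcf4* and *Ikzf2* were the 3 of 13 tested genes past 1.5-fold higher in both libraries, and 0 were past it lower, with median log2 ratios of 0.37 and 0.31. *Sox4* and *Gata2*, transcription factors of stem and early progenitor cells, had under 100 UMIs in a library. *Sox4* had 58 UMIs in members and 12 in the larger matched group of the WT-labelled library and 45 and 31 in the KO-labelled library, log2 ratios of 3.27 (2.36 to 4.31) and 1.52 (0.83 to 2.23), and *Gata2* had 27 and 7 and 52 and 36 UMIs.

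Among megakaryocyte, mast cell and basophil genes, *Cpa3* and *Mcpt8* were higher in members, each in a minority of cells. *Cpa3*, mast cell carboxypeptidase, was at 159 against 14.9 CPM in the WT-labelled library and 184 against 62.1 CPM in the KO-labelled library, log2 ratios of 3.41 (2.81 to 4.07) and 1.56 (1.24 to 1.89). Its UMIs came from 18 of 241 members and from 31 of 405, and the 5 richest cells held 59.7% and 49.8% of them. *Mcpt8*, a basophil protease, was at 244 against 86.7 and 439 against 159 CPM and was found in 14.9% and 16.05% of members. Other genes of the list (*Fcer1a*, *Prss34* and *Cma1*) had 0 UMIs in members, and *Ms4a2* had 1. The 5 platelet and megakaryocyte genes of the list (*Pf4*, *Itga2b*, *Gp1bb*, *Gp9* and *Ppbp*) had fewer UMIs in members, 5 against 33 in the WT-labelled library and 70 against 644 in the KO-labelled library, over 241 against 482 and 405 against 810 cells. The summed list stood at log2 ratios of 1.77 (1.53 to 2.02) and 0.41 (0.28 to 0.54), and within clusters at 0.32 (0.12 to 0.51) and -0.44 (-0.56 to -0.31). *Prg2*, the major basic protein of eosinophils, was chosen after its values were seen: it had the highest log2 ratio of the WT-labelled library, 4.67, but 213 of its 368 UMIs came from 1 cell and all from 5.

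Members with *Mcpt8* differed from those without it in several transcripts, although they were also deeper (medians of 4985.5 against 3237 UMIs in the WT-labelled library and 5007 against 1882 in the KO-labelled library). *Cpa3* accompanied *Mcpt8* in 27.8% of such cells (14.2 to 45.2) and was found in 3.90% (1.70 to 7.54) of the others in the WT-labelled library, and in 23.1% (13.5 to 35.2) against 4.71% (2.71 to 7.53) in the KO-labelled library. *Flt3* was found in 41.7% against 17.6% and in 30.8% against 13.8%. *Ms4a6c* did not separate them, with 52.8% (35.5 to 69.6) against 57.1% (49.99 to 63.9) and 61.5% (48.6 to 73.3) against 62.1% (56.7 to 67.2), in spite of the difference in depth. The part of depth in these shares was not tested.

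Broader functions completed the profile. *Ly6e*, a GPI-anchored protein of progenitors, had the widest detection among the 15 named higher genes, with a UMI in 81.7% of members and 44.8% of matched cells of the WT-labelled library and in 85.4% and 36.7% in the KO-labelled library, and with log2 ratios of 1.39 (1.24 to 1.55) and 1.69 (1.56 to 1.82). MHC class I genes were higher by log2 ratios of 0.59 (0.53 to 0.64) and 0.82 (0.78 to 0.85) in sum. Of 7 tested, *H2-K1*, the transporter gene *Tap2* and the immunoproteasome gene *Psmb8* were past 1.5-fold in both libraries. Cytosolic ribosomal protein genes supplied 21.04% of UMIs in members and 16.5% in matched cells of the WT-labelled library and 16.9% and 13.2% in the KO-labelled library. Chaperone and growth genes were at 0.27 (0.24 to 0.30) and 0.25 (0.22 to 0.28), with 0 of 14 past the fold. The median gene of each library was itself at 0.14 and 0.13. Within clusters the chaperone and growth list was at -0.02 (-0.05 to 0.01) and 0.08 (0.05 to 0.11). For comparison, the interferon-stimulated list stood at -0.10 (-0.21 to 0.00) and 0.09 (0.00 to 0.17, or -0.04 with scaling by gene ratios), and the stress and dissociation list at 0.04 and -0.01.

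Mitotic transcripts were lower in members while S phase transcripts were close to those of matched cells in CPM. The G2 and M phase list was at 1129.8 against 1727 CPM in the WT-labelled library and 1371 against 2281 CPM in the KO-labelled library, log2 ratios of -0.61 (-0.72 to -0.51) and -0.73 (-0.82 to -0.65). *Ube2c*, *Aurka* and *Birc5*, which act in cyclin destruction, spindle assembly and the chromosomal passenger complex, were the 3 of 12 tested genes past 1.5-fold lower in both, and 0 were past it higher. The S phase list was at log2 ratios of -0.12 (-0.20 to -0.05) and -0.02 (-0.08 to 0.05), with 0 of 17 genes past the fold in either direction. Both values lay below the median gene of their library, at 0.14 and 0.13. Against all undetected cells the S phase list of the WT-labelled library stood at 0.12. *Cdkn1c*, an inhibitor of cyclin-dependent kinases, and the neuropeptide gene *Gal* were also lower in members, at 25.4 against 116 and 14.5 against 74.9 CPM for *Cdkn1c* and 17.7 against 52.5 and 10.9 against 59.3 CPM for *Gal*. The list of cyclin-dependent kinase inhibitors and quiescence genes, which includes *Gal*, had 8 tested genes, of which these were the ones past 1.5-fold in both libraries.

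**Figure D5:**
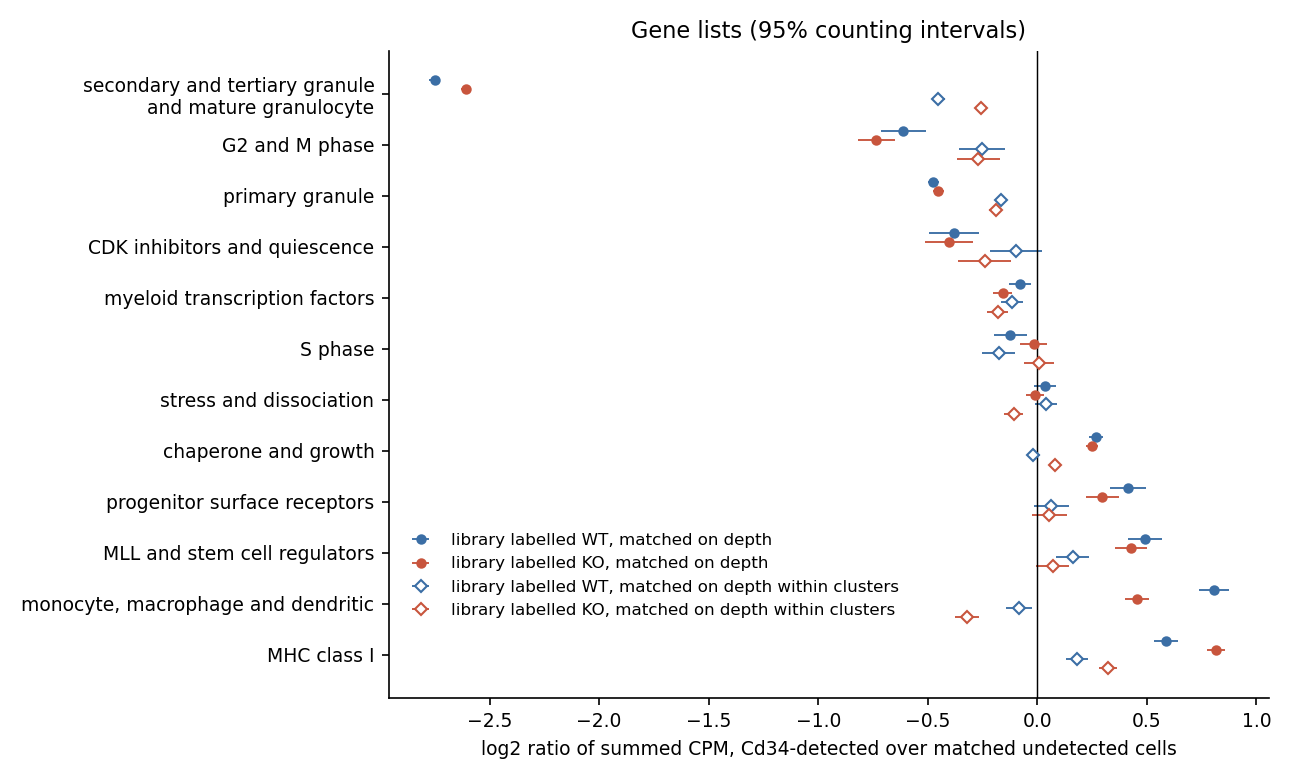
Log2 ratio of summed CPM with 95% counting intervals for 12 gene lists, *Cd34*-detected over matched undetected cells, in the WT-labelled library (blue) and the KO-labelled library (red). Filled circles are cells matched on depth, open diamonds cells matched on depth inside the same cluster, where the granule list moves from -2.75 and -2.61 to -0.45 and -0.26.

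Matching inside clusters removed most of these differences. With each member matched to undetected cells of its own cluster, 2 of 3198 genes were 1.5-fold or more higher in both libraries (0.0625%) and 8 lower (0.25%), and the median log2 ratio over all genes was 0.01 and 0.02. In the KO-labelled library 354 of 405 members found partners, at a mean depth of 2753 UMIs against 2494. Those without partners were the shallowest members of cluster 3, where 139 of 316 cells were members and undetected cells ran out. The clusters were built on many of the same genes, so this comparison asks only what remains beyond them. *Cpa3* remained, with log2 ratios of 2.12 (1.69 to 2.56) and 0.76 (0.47 to 1.05), as did *Hmces*, which shields abasic sites in DNA, with 0.67 (0.18 to 1.16) and 0.86 (0.50 to 1.21). The 8 lower genes were *Cd74*, *H2-Ab1*, *Chil3*, *Ube2t*, *Apbb1ip*, *Arl11*, *Slfn2* and *Maz*, of which those outside the named genes and lists were chosen after their values were seen. *Cd74* was at 17.7 against 71.7 CPM and 151 against 991 CPM, and *Chil3*, a chitinase-like protein of maturing myeloid cells, at 5197 against 10754 and 2904 against 5004 CPM. *Flt3* stood at 0.53 (0.06 to 0.99) and 0.74 (0.33 to 1.16) and *Ly6e* at 0.31 (0.18 to 0.44) and 0.37 (0.26 to 0.49), whereas *Irf8* was at 0.01 (-0.17 to 0.20) and 0.08 (-0.17 to 0.32).

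Members were also compared by their number of *Cd34* UMIs. Members with 2 or more UMIs were matched on depth to members with 1, 87 and 87 cells in the WT-labelled library and 130 and 130 in the KO-labelled library. Secondary and tertiary granule genes were at 6881 against 19709 CPM and 6089 against 23143 CPM, log2 ratios of -1.52 (-1.59 to -1.45) and -1.93 (-1.99 to -1.86). The sums rested on a few granule-rich members: 2 against 8 cells and 2 against 13 cells had 5% or more of their UMIs in these genes, whereas the median cell had 0.303% against 0.357% and 0.316% against 0.328%. The MLL and stem cell list did not follow, at 0.02 (-0.12 to 0.16) and 0.01 (-0.12 to 0.14), nor did the monocyte list, at 0.04 (-0.07 to 0.16) and 0.06 (-0.04 to 0.17). *Flt3* was at 104 against 42.9 and 116 against 72.9 CPM, ratios of 1.27 (0.34 to 2.28) and 0.67 (-0.01 to 1.38), and the G2 and M phase list took opposite signs, -0.35 (-0.55 to -0.14) and 0.46 (0.30 to 0.63). Members with a single UMI already differed from their matched cells by -2.38 and -2.20 in granule genes.

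Other cell types that express *Cd34* or could pass the sort left little trace. Of 9 endothelial markers, 7 had 0 UMIs in members, *Cdh5*, *Kdr*, *Tek*, *Emcn* and *Vwf* among them, while *Pecam1*, which myeloid progenitors also carry, supplied 46 and 64 UMIs and was found in 16.6% and 12.3% of members against 7.05% and 4.94% of matched cells. Stromal collagen genes and *Cxcl12* were at 0, with *Lepr* supplying 53 and 31 UMIs, and 11 of 14 lymphoid markers were at 0, with *Cd79b* supplying 68 and 118. Hemoglobin transcripts were few in members, where *Hbb-bs* had 2 and 27 UMIs, but reached 1292 UMIs in matched cells of the KO-labelled library, 94.7% of them in 5 cells. The erythroid list hence stood at 52.4 against 1666 CPM in that library, a ratio set by a few undetected cells.

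*Xist*, a sex-linked transcript that can differ between the leukemias of a pool, moved with *Cd34*. *Xist* was at 443 against 266 CPM in the WT-labelled library and 120.3 against 77.6 CPM in the KO-labelled library, log2 ratios of 0.73 (0.54 to 0.93) and 0.63 (0.29 to 0.97). Of cells with *Xist* and no Y-linked UMI, 9.81% carried *Cd34* (8.41 to 11.4) in the WT-labelled library, against 1 of 94 cells with a Y-linked and no *Xist* UMI (1.06%, 0.0269 to 5.79). The corresponding shares in the KO-labelled library were 16.4% (13.1 to 20.1) and 13.7% (11.0 to 16.8). At 1000 UMIs they were 3.12% against 0% and 8.80% against 5.88%. The part of single leukemias in the differences between members and matched cells was not tested, because no label assigns cells to leukemias.

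Members of the 2 libraries were finally set side by side. The granule list was nearly level and changed sign with every cell at 1000 UMIs (log2 ratios of 0.05 and -0.05), at 14544 CPM in the WT-labelled library and 15096 in the KO-labelled library, while MHC class I genes were at 5135 and 8720.4 CPM, a log2 ratio of 0.76 (0.71 to 0.81) that had a counterpart of 0.54 (0.49 to 0.58) in matched undetected cells. *Ms4a6c* was higher in members of the KO-labelled library by a log2 ratio of 0.86 (0.67 to 1.05), against 0.39 (0.17 to 0.62) in matched cells, and *Camp* by 0.85 (0.75 to 0.95) against -0.07 (-0.09 to -0.04), although 5 cells held most *Camp* UMIs of WT-labelled members (68.1%) and 44.2% of those of KO-labelled members. *Tifab* had a log2 ratio of -0.96 (-1.38 to -0.54), or -2.34 with every cell at 1000 UMIs, and *Chil3* one of -0.99 (-1.06 to -0.93), with matched-cell ratios of -1.05 and -0.69. *Mcpt8* had a ratio of 0.85 (0.61 to 1.08) that came to 0.15 with every cell at 1000 UMIs. *Kat2a* was at a log2 ratio of 2.41 (1.73 to 3.17) in members and 3.44 (2.75 to 4.22) in matched cells, or 1.86 (0.69 to 3.27) and 2.46 (1.40 to 3.72) with every cell at 1000 UMIs. It was found in 18 of 241 members (7.47%, 4.49 to 11.5) and 3.32% of matched cells in the WT-labelled library, and in 19.8% (15.99 to 24.0) and 17.9% in the KO-labelled library. All of these compare 2 libraries, and genotype, pool and library cannot be told apart.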

How the data were processed

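The deposited values were UMI counts: per the labels, the authors ran Cell Ranger (version 1.3.1 in the submitters' processing notes) on 10x Genomics 3′ libraries aligned to mm10 and deposited 1 matrix of 27998 genes by 8309 cells, without normalization; the annotation is not given in the sources used here. Libraries were told apart by barcode suffix, -1 taken as KO and -2 as WT from the study's code. Members and gene lists were chosen with earlier results of these data known.

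Cells with 500 or more genes were kept. *Cd34* was left out of totals and clustering. CPM were summed over cells; ratios carry exact conditional binomial intervals and shares exact Clopper-Pearson intervals. Genes named were the 15 furthest past 1.5-fold in both libraries in each direction, ranked by the smaller log2 ratio, with the gene lists. Clustering and doublet scoring used scikit-learn and Scrublet in scanpy. Scrublet called 5 of 8309 cells, too few to be taken as working, so doublets were kept and the 5% with the highest scores left out as an alternative. A cluster was named where 3 of a type's markers were raised 1.5-fold and 2 were among its 10 leading genes. The matching and ratios were run on simulated cells drawn from a single profile per library, with set fold changes in detected cells. The simulation held no clusters and no spread between cells, so it does not test the intervals against either. Symbols shared by more than 1 gene (56) were kept apart by identifier and left out of the gene lists. The granule list used 16 of its 17 named genes and the myeloid transcription factor list 13 of 14. The alternatives are listed in the closing section.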

Additional observations from a re-analysis of the deposited data

Results flagged for a closer look

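*Car2*, a carbonic anhydrase, *Pex19*, a peroxisomal import factor, and *Jak1*, a cytokine receptor kinase, passed 1.5-fold between *Cd34*-detected and matched cells in opposite directions in the 2 libraries; the differences were not tested. *Car2* had a log2 ratio of 1.93 (1.54 to 2.33) in the WT-labelled library and -2.80 (-3.83 to -1.92) in the KO-labelled library. In the former it was found in 61 of 241 members and 6.43% of matched cells, and in the latter in 9 of 405 members, while 5 matched cells held 73.7% of its UMIs there. In the WT-labelled library, members with *Xist* carried *Car2* in 30.6% of cases (23.6 to 38.4) and those without in 14.8% (7.90 to 24.4). Members with *Xist* were also deeper, with medians of 3616 against 2586 UMIs, and the part of depth was not tested. *Pex19* stood at 0.67 (0.12 to 1.20) and -0.73 (-1.28 to -0.20), and *Jak1* at -0.86 (-1.57 to -0.21) and 0.60 (0.09 to 1.11). The erythroid list, to which *Car2* belongs, stood at 1.92 in the WT-labelled library and -4.99 in the KO-labelled library, the latter from hemoglobin in a few matched cells.

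Cells under 500 genes, which no comparison used, carried *Cd34* in 2.45% of cases in the KO-labelled library, so the gene was also seen in data left out of the comparisons. Their 24 UMIs came to 36.1 CPM (23.1 to 53.7), against 76.0 CPM in kept cells.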

How the results depend on the processing

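No paired analysis was possible because the genotypes had a single library each. Why a value moved was not tested.

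The share of cells with *Cd34* in the WT-labelled and the KO-labelled library was 2.24% and 6.36% at 1000 UMIs, 4.97% and 9.66% at 2000, 9.13% and 18.1% in cells with 1000 or more genes, and 2.25% and 3.67% with 2 or more UMIs of *Cd34* required. Over every deposited cell it was 9.95% in the KO-labelled library. The KO-labelled share was the higher one under each of these settings.

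Genes past 1.5-fold in both libraries numbered 427 higher and 300 lower against all undetected cells, 64 and 57 in matched cells thinned to 1000 UMIs, 2 and 8 within clusters, 85 and 79 in cells with 1000 or more genes, 238 and 186 with 50 or more UMIs per gene, and 946 and 551 with no count limit. With 1 matched cell per member 80 were lower, and with median-of-ratios scaling 93 were higher, all among the 140.

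Log2 ratios are given next with the WT-labelled library first. The granule list stood at -2.96 and -2.84 against all undetected cells, -2.94 and -2.93 thinned, -2.79 and -2.54 with 1 matched cell, -0.45 and -0.26 within clusters, -2.62 and -2.17 in cells with 1000 or more genes, -3.84 and -3.88 with 2 or more *Cd34* UMIs, and -2.89 and -2.73 under median-of-ratios scaling. Without the 5% highest doublet scores it was -3.08 in the KO-labelled library. The progenitor receptor list stood at 0.30 and 0.19 against all undetected cells, 0.064 and 0.055 within clusters, and 0.27 and 0.17 under median-of-ratios scaling, and at 0.40 thinned in the KO-labelled library. The MLL and stem cell list stood at 0.16 and 0.070 within clusters, 0.40 and 0.35 in cells with 1000 or more genes, and 0.35 and 0.30 under median-of-ratios scaling, and at 0.58 thinned in the WT-labelled library. The monocyte list stood at 0.44 and 0.27 against all undetected cells, 0.62 and 0.60 thinned, 0.96 and 0.56 with 1 matched cell, and 0.66 and 0.33 under median-of-ratios scaling, and it turned to -0.084 and -0.32 within clusters. It was 0.93 with 2 or more *Cd34* UMIs in the WT-labelled library, and 0.60 in cells with 1000 or more genes and 0.52 without the highest doublet scores in the KO-labelled library. The G2 and M phase list stood at -0.25 and -0.27 within clusters and -0.75 and -0.86 under median-of-ratios scaling. In the KO-labelled library it was also -0.58 against all undetected cells, -0.64 in cells with 1000 or more genes and -0.50 with 2 or more *Cd34* UMIs.

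Other signs turned as well. Within clusters the WT-labelled library gave -0.36 for the erythroid, -0.082 for the CD34 family and -0.018 for the chaperone list, and 0.092 for *S100a9*, 0.23 for *S100a8*, 0.073 for *Fcnb*, 0.072 for *Ngp*, 0.49 for *Itgb2l* and 0.010 for *Lcn2*. The KO-labelled library gave -0.44 for the megakaryocyte, mast cell and basophil list, -0.012 for the interferon list and 0.014 for *Gm5483*. *Cpa3* and *Mcpt8*, of the first of these lists, did not turn within clusters of that library, at 0.76 and 0.92. Against all undetected cells the WT-labelled library gave -0.63 for the erythroid and 0.12 for the S phase list, and the KO-labelled library -0.029 for the interferon list, which was at -0.039 under median-of-ratios scaling. The granule list between members of the libraries was at -0.049 thinned. Of 320 list values 166 stayed within the interval and 11 turned, and of 478 values of named genes 279 stayed and 7 turned. Some lists whose main interval spanned both signs also changed sign within clusters and are not among the 11. Examples are the stromal list of the WT-labelled library (-0.28 to 0.31) and the S phase list of the KO-labelled library (-0.016 to 0.008). With 16 clusters the granulocyte-like share was 0.318% and 1.26%.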
